A study of Mus musculus with 6 samples.

Results

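Fatty acid oxidation is the stepwise breakdown of fatty acids to acetyl-CoA, mostly inside mitochondria, and the peroxisome proliferator-activated receptors (PPARs) are nuclear receptors that bind fatty acids and switch on genes of lipid use. The set described here is a list of gene names, with no measured value in its rule, drawn up with earlier results of these data known. It holds 38 genes, of 23453 gene rows in the deposited count table: enzymes and carriers of the pathway, 6 known PPAR target genes and the 3 PPAR receptor genes. All 38 had a row in the table. RNA sequencing was done on splenocyte cultures from WT OT1 mice of the C57BL/6 strain. OT1 is a transgene for a T cell receptor that recognises an ovalbumin (OVA) peptide. All cultures received the OVA peptide for 48 h. The TCM group (3 libraries) then had TCM for 8 h, and the FCM group (3 libraries, titled vehicle) had FCM for the same time. The labels expand neither abbreviation, give no age or sex, and do not say whether replicates came from separate animals or cultures, so that the spread behind each p-value may be only technical.

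Which group is called TCM is itself in doubt. The count table and the normalized table carry the same 6 titles, but each of the 6 normalized columns was a constant multiple of a count column titled for the opposite group (with an equal replicate number), and 0 of 6 matched their own title. Group names below follow the count table's header. Under the header of the normalized table the sign of all 35 tested members turned, with the same sizes, so that every "higher" below becomes "lower". Replicate 1 of both groups stood apart from replicates 2 and 3. Without both of them 23 members were again higher and 7 lower. The share of all tested genes that passed then rose to 74.2%, from 58.8% with all 6 libraries.

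Long-chain fatty acids enter mitochondria as carnitine esters: CPT1A makes the ester at the outer membrane, SLC25A20 carries it across the inner membrane and CPT2 remakes the CoA ester inside. A dehydrogenase, a hydratase, a second dehydrogenase and a thiolase then shorten the chain, while electron transfer flavoprotein (ETF) passes the electrons of the first step to the respiratory chain. Activated effector T cells rely mainly on glucose and glutamine, and fatty acid oxidation is known best from memory and regulatory T cells.

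By the count table's header most of the enzyme genes were higher in TCM, and Cpt1a, the gene of the entry step, was lower. Of the 35 members with enough counts to be tested, 23 were higher, 7 were lower and 5 did not pass an adjusted p of 0.05 (edgeR's quasi-likelihood test, Benjamini-Hochberg over all 12423 genes tested). Among all tested genes 58.8% passed, 28.8% as higher and 30.0% as lower. The members' shares were 85.7% called, 65.7% higher and 20.0% lower, so that the higher calls stood above the background and the lower calls below it. No test was made of the list as a whole. Without TCM replicate 2 the members gave 21 higher and 3 lower, and without TCM replicate 3 they gave 23 higher and 3 lower. Among all tested genes 45% and 49.7% passed in these fits, in that order. With library totals alone as the scaling, where 50.9% of all tested genes passed, 11 members were higher and 7 lower. That is 61.1% of calls higher against 76.7%. The 12 that lost their call with that scaling were Cpt2, Slc25a20, Crot, Acadvl, Hadhb, Hadh, Acaa2, Acat1, Decr2, Hsd17b4, Etfb and Cd36. The median log2 fold change of the 35 tested members was 0.58, beside -0.02 for all tested genes. In size the members were ordinary: their median absolute log2 change was 0.59 and that of all tested genes 0.55. The groups of libraries did not overlap in 82.9% of the tested members (TCM above FCM in 22, below in 7), and in 64.2% of all tested genes (TCM above in 30.6%, below in 33.6%). The remaining 3 members, Pdk4, Ppara and Pparg, had too few counts for the test.

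**Figure D1:**
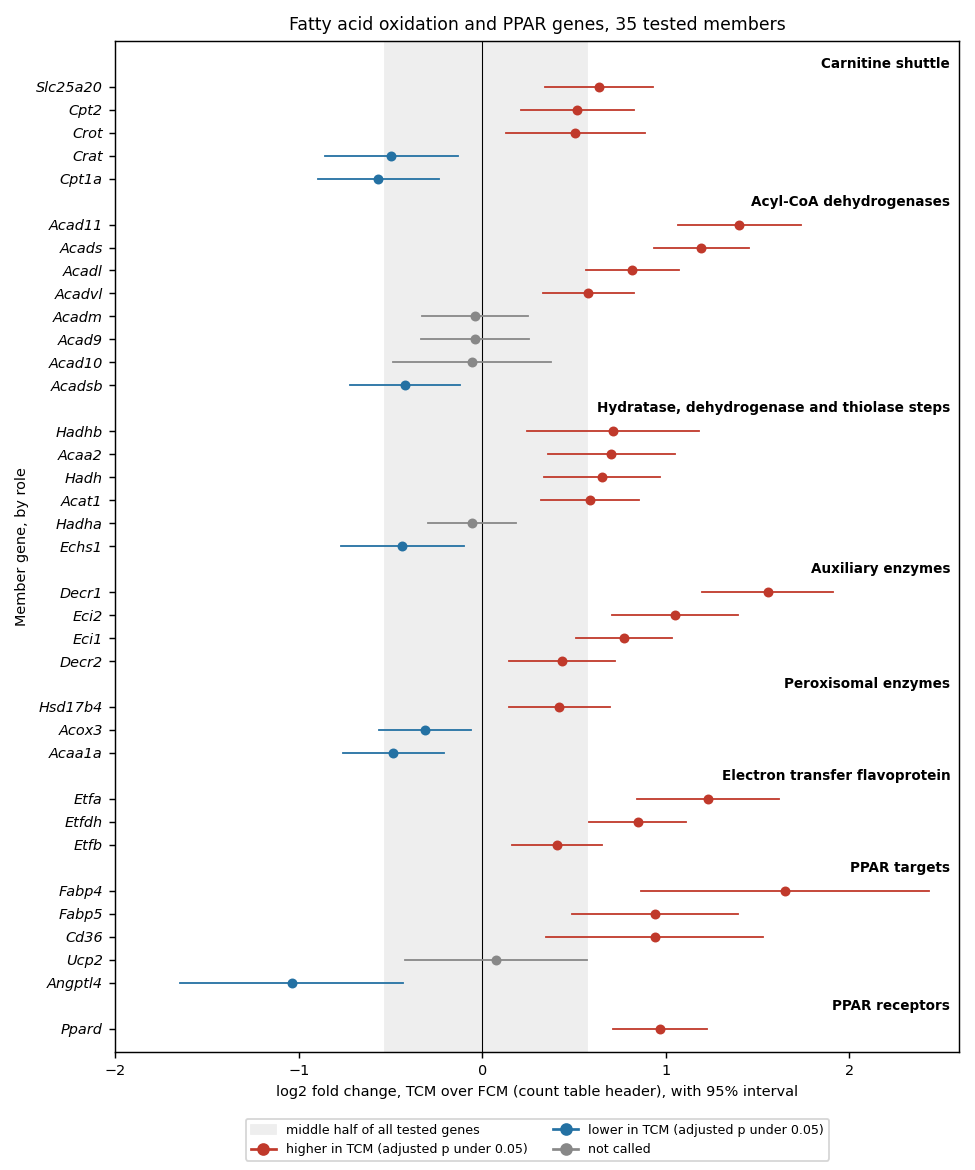
Log2 fold change (TCM over FCM, count table header) of the 35 tested members, grouped by role, with 95% intervals from edgeR and the quartiles of all tested genes as a grey band. The 23 members higher in TCM are spread over all 8 roles, while the 7 lower members include Cpt1a and Crat of the carnitine shuttle and Acaa1a and Acox3 of the peroxisome.

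Depth and the levels of cell type markers differed between the libraries. Total counts ran from 17166687 to 21197117 in TCM and from 18729982 to 25789381 in FCM, and 1 count was worth 0.0532 to 0.0655 CPM in TCM and 0.0374 to 0.0454 CPM in FCM (CPM, a count relative to library size, here with TMM factors that set the libraries to a common scale). The labels name cytotoxic T lymphocytes. T cell markers were present (9 genes, summed level 968 to 1045 CPM in TCM and 922 to 994 CPM in FCM), with 2 higher, 2 lower and 5 not called. Markers of other cell types were also found. Of 13 neutrophil markers 12 were lower and Mmp8 was not called, at a summed level of 1545 to 2640.1 CPM in TCM and 8854 to 13477 CPM in FCM. Of 12 tested macrophage and monocyte markers 9 were lower and 1, Marco, was higher (187 to 241 CPM in TCM and 859 to 1096 CPM in FCM), and of 8 B cell markers 5 were lower (943 to 1124 CPM in TCM and 1681 to 2018 CPM in FCM). Of 8 dendritic cell markers 6 were tested, with 1 higher and 3 lower (42.1 to 51.5 CPM in TCM and 34.8 to 37.9 CPM in FCM). The higher one, Batf3, carried that sum, and without it the list summed to 14.3 to 16.3 CPM in TCM and 30.6 to 33.1 CPM in FCM. Of 8 erythroid and platelet markers 6 were tested, with 5 lower (6.39 to 7.64 CPM in TCM and 12.8 to 15.2 CPM in FCM). Clec4f of the macrophage list and Cd209a of the dendritic cell list were at 0 in all libraries. So were Plin1, Cidec, Lep and Cfd, 4 of 6 markers of adipocytes, the cells in which PPARG, FABP4 and ANGPTL4 are abundant. In bulk RNA fewer cells of a type and less RNA per cell cannot be told apart, and the part of these cell types in the members' differences was not tested.

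Sequences before the start sites of some members are printed below, and no promoter activity was measured. Hadha and Hadhb encode the 2 subunits of the mitochondrial trifunctional protein and lie head to head on chromosome 5 of GRCm38 (mm10), Hadha at 30118304 to 30155162 on the minus strand and Hadhb at 30155248 to 30184593 on the plus strand. Their start sites are 86 bases apart in GENCODE M21 and 273 in RefSeq. The 85 bases that precede both starts in both annotations (chr5:30155163-30155247, plus strand) thus lie before 2 genes of one enzyme, of which Hadhb was called higher in TCM and Hadha was not called.
Hadha and Hadhb: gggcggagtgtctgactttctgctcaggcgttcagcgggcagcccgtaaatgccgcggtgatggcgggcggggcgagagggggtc

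PPARs bind as partners of RXR to a direct repeat of AGGTCA with 1 base between the copies, called DR1. Among the 29 members with a RefSeq promoter window (GRCm38.p6), the DR1 motif and a looser form built in the same way from AGGNCA, searched on both strands of the 250 bases before the start, matched in 0. They matched in 0.0335% and 0.338% of all 32851 windows. The looser form contains the full one. The single core AGGTCA, which many nuclear receptors bind and which is part of the full motif, was in 6 of the 29 genes and in 14.0% of all windows. The 4 of these 6 whose transcripts passed the test are printed with the core, or its reverse complement, in capitals. Cpt1a and Echs1 were lower in TCM, and Acadvl and Cd36 were higher. The first base of the match lay 94, 83, 87 and 228 bases before the RefSeq start in Cpt1a (chr19:3323051-3323300, strand +), Echs1 (chr7:140116422-140116671, strand -), Acadvl (chr11:70015429-70015678, strand -) and Cd36 (chr5:17835897-17836146, strand -). The RefSeq start used here lay 967 bases inside the GENCODE M21 gene for Cpt1a, 52905 for Cd36 and 55 for Echs1, so that these windows lie wholly or partly within the GENCODE gene, and 17 bases outside it for Acadvl. The other two were Acadm, which was not called, and Pparg, which was not tested. A match describes letters, and no binding was measured.
Cpt1a: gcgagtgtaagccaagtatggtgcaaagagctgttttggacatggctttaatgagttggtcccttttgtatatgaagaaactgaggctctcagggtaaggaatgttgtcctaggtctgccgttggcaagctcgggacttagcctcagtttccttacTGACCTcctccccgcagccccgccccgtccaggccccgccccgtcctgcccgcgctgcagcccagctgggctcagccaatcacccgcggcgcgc
Echs1: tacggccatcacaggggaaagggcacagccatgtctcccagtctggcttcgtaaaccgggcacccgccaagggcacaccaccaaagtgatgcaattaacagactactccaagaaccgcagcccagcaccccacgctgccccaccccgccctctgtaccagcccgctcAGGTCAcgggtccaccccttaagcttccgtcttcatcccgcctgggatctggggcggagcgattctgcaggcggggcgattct
Acadvl: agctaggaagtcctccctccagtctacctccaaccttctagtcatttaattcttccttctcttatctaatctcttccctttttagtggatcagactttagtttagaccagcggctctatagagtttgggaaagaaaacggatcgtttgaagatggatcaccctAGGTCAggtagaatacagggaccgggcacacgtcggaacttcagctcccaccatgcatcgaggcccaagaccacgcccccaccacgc
Cd36: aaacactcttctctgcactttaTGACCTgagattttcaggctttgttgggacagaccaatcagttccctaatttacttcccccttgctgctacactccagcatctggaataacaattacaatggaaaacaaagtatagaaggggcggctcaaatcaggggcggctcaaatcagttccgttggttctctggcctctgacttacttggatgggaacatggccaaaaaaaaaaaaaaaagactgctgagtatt

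The carnitine shuttle was split. Cpt1a (chromosome 19, 3322334 to 3385733), whose enzyme sets the pace of long-chain fatty acid entry, had 9.90, 7.73 and 9.78 CPM in TCM replicates 1 to 3, against 13.1, 15.3 and 12.3 CPM in FCM replicates 1 to 3. Every TCM library was below every FCM library, and the fall was 1.48-fold (log2 -0.57 ± 0.15 SE, adjusted p = 0.00896). The partner steps rose instead. Cpt2, the inner-membrane transferase, had 5.80, 6.61 and 5.73 CPM in the TCM libraries and 4.36, 4.12 and 4.19 CPM in the FCM libraries. Slc25a20, the carnitine-acylcarnitine carrier (chromosome 9, 108662088 to 108684641), had 11.6, 12.5 and 13.5 CPM in the TCM libraries and 8.94, 8.01 and 7.29 CPM in the FCM libraries. In both genes the TCM libraries all lay above the FCM libraries, by 1.43-fold and 1.55-fold (log2 0.52 ± 0.14 and 0.64 ± 0.13, adjusted p = 0.0101 and 0.00288).

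The ratio of Cpt2 to Cpt1a counts within a library, which no scaling between libraries can move, was 0.586, 0.856 and 0.586 in the TCM libraries and 0.333, 0.269 and 0.340 in the FCM libraries. The mean log2 ratio was -0.59 ± 0.32 in TCM and -1.68 ± 0.19 in FCM (SD, n = 3 each; two-sided exact permutation p = 0.1, the smallest that 3 against 3 can give; adjusted p = 0.114 over 8 ratios, which were chosen after the values were seen). Ratios of members that differ in length are not free of a trend of fold change on transcript length, described below. Cpt2 and Cpt1a have transcripts of 2372 and 4317 bases. With that trend removed they changed by 0.44 and -0.44 on the log2 scale, and both kept their calls. The other 2 acyltransferases also parted. Crot, which makes carnitine esters of medium-chain products in peroxisomes, was higher by 0.51 ± 0.17 on the log2 scale (adjusted p = 0.0277). Crat, which handles acetyl and other short groups, was lower by 1.41-fold (log2 -0.50 ± 0.16, adjusted p = 0.0257). Neither call held each time a library was left out: Crot lost its call without TCM replicate 1 or 2 or FCM replicate 2 or 3 (adjusted p = 0.0626 to 0.0953, log2 change 0.41 to 0.51), and Crat without TCM replicate 2 or 3 or FCM replicate 2 or 3 (adjusted p = 0.0662 to 0.101, log2 change -0.49 to -0.37). Some exon bases of Crat are shared with Dolpp1. The summed level of the 5 shuttle genes was nearly level between groups, 44.8 to 48.5 CPM in TCM and 41.6 to 45.4 CPM in FCM.

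**Figure D2:**
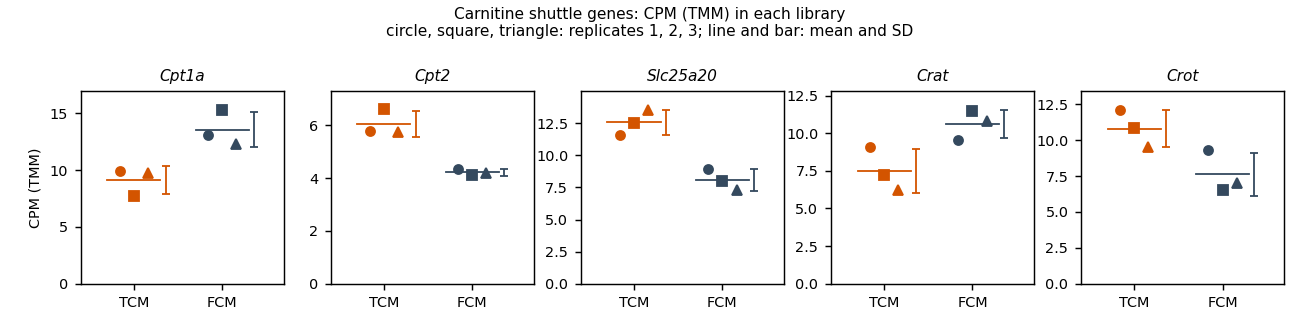
CPM (TMM scaled) of the 5 carnitine shuttle genes in each of the 3 TCM and 3 FCM libraries, with mean and SD. Cpt1a and Crat lie lower in TCM in every library, and Cpt2, Slc25a20 and Crot lie higher.

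Acyl-CoA dehydrogenases, which take the first electrons and are named for the chain length they prefer, ranged from 3 genes that were not called to some of the strongest rises of the set. Acads, the short-chain enzyme (chromosome 5, 115110299 to 115119346), had 36.2, 43.1 and 39.9 CPM in TCM replicates 1 to 3, against 17.7, 16.8 and 17.7 CPM in FCM replicates 1 to 3. No library of one group came near the other, and the rise was 2.29-fold (log2 1.19 ± 0.11, adjusted p = 3.98e-05), the smallest p of the set. Acadl, the long-chain enzyme, had 69.5, 60.2 and 61.3 CPM in the TCM libraries and 35.8, 36.8 and 35.8 CPM in the FCM libraries, a rise of 1.76-fold (log2 0.82 ± 0.11, adjusted p = 0.000324). For Acadvl, the very-long-chain enzyme of the inner membrane, the values were 25.3, 26.8 and 24.0 CPM in the TCM libraries and 16.1, 17.8 and 17.0 CPM in the FCM libraries. All 3 TCM libraries again exceeded all FCM libraries, by 1.49-fold (log2 0.58 ± 0.11, adjusted p = 0.00185). Acadvl shares 1151 exon bases with Dvl2 in GENCODE M21, and the strand setting of the counting is not given in the sources used here.

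Acad11, a less studied member of the family, rose 2.64-fold from a low level, with 8.04, 10.1 and 9.55 CPM in the TCM libraries and 3.18, 3.55 and 3.72 CPM in the FCM libraries (log2 1.40 ± 0.15, adjusted p = 7.29e-05). The medium-chain gene Acadm had 13.5, 11.3 and 13.9 CPM in the TCM libraries and 13.7, 14.0 and 12.2 CPM in the FCM libraries, and these ranges overlapped. It did not pass, with a log2 change of -0.04 and a 95% interval of -0.33 to 0.25, so that a change of the size seen in Acads lies outside the interval. Within each library the ratio of Acads to Acadm counts was 2.69, 3.80 and 2.87 in the TCM libraries and 1.29, 1.20 and 1.45 in the FCM libraries, with no overlap between the groups (two-sided exact permutation p = 0.1). Acad9, also known as an assembly factor of respiratory complex I, and Acad10 did not pass either, at -0.04 (95% interval -0.34 to 0.25) and -0.06 (-0.49 to 0.37) on the log2 scale. Acadsb, which acts on branched chains from isoleucine, was lower by 1.34-fold (log2 -0.42 ± 0.13, adjusted p = 0.0224). Its call was lost without TCM replicate 2 or 3 or FCM replicate 1 (adjusted p = 0.0615 to 0.0702, log2 change -0.42 to -0.31). The 8 dehydrogenase genes together summed to 174 to 177 CPM in TCM and 113 to 118 CPM in FCM.

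ETF is the dimer of the ETFA and ETFB proteins that takes electrons from these dehydrogenases, and ETFDH hands them to ubiquinone. All 3 genes were higher in TCM, by unequal amounts, as were 28.8% of all tested genes. Etfa (chromosome 9, 55454508 to 55512243) had 108, 137 and 136 CPM in TCM replicates 1 to 3, against 62.4, 43.7 and 56.3 CPM in FCM replicates 1 to 3, well apart between groups. It rose 2.35-fold (log2 1.23 ± 0.17, adjusted p = 0.000338). Etfdh had 15.0, 14.1 and 16.5 CPM in the TCM libraries and 8.80, 8.38 and 8.18 CPM in the FCM libraries, a rise of 1.80-fold (log2 0.85 ± 0.12, adjusted p = 0.000346). It shares 278 exon bases with 4930579G24Rik. Etfb rose 1.33-fold, at 32.7 ± 0.586 CPM in TCM and 24.6 ± 1.73 CPM in FCM (SD, n = 3 each; log2 0.41 ± 0.11, adjusted p = 0.0104). That call was lost without FCM replicate 3 (adjusted p = 0.0524, log2 change 0.38), and the sign of Etfb turned to -0.11 when a trend of fold change on transcript length was removed. Etfa reads per Etfb read within a library were 3.24, 4.27 and 4.18 in the TCM libraries and 2.34, 1.86 and 2.37 in the FCM libraries, with every TCM library above every FCM library (mean log2 ratio 1.95 ± 0.22 in TCM and 1.12 ± 0.20 in FCM, SD, n = 3 each; two-sided exact permutation p = 0.1).

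**Figure D3:**
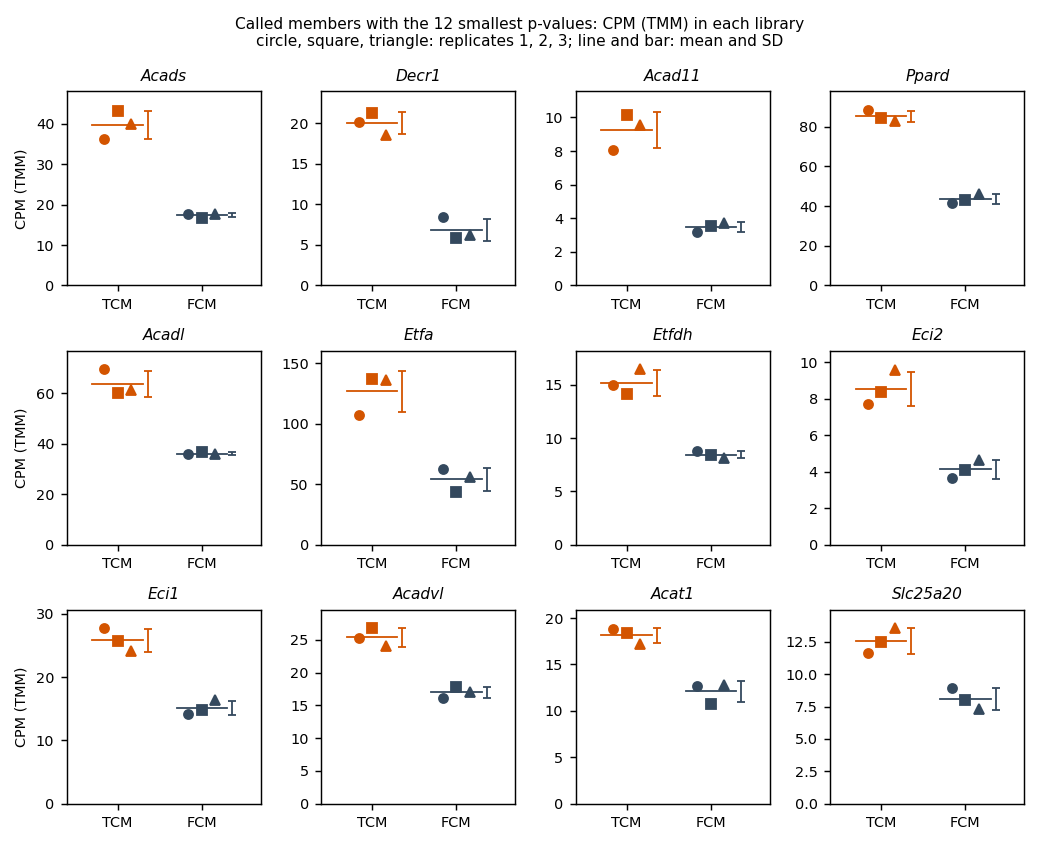
CPM (TMM scaled) in each library of the called members with the 12 smallest p-values, all of them higher in TCM, with mean and SD of 3 libraries per group. In each of the 12 genes the lowest TCM library lies above the highest FCM library.

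Of the 6 genes of the inner steps of the cycle 4 were higher, 1 was lower and 1 was not called. Among all tested genes 28.8% were higher and 30.0% lower. Hadha, which carries the hydratase and dehydrogenase activities of the trifunctional protein, had 41.8, 39.6 and 40.1 CPM in the TCM libraries and 40.4, 44.5 and 41.3 CPM in the FCM libraries. These values overlapped, and the log2 change was -0.06 (95% interval -0.30 to 0.18, adjusted p = 0.671). Hadhb, its thiolase subunit on the other side of the stretch printed above, had 25.1, 21.1 and 16.2 CPM in TCM replicates 1 to 3, against 16.4, 11.0 and 10.9 CPM in FCM replicates 1 to 3. TCM replicate 3 was just below FCM replicate 1, so that the groups overlapped, although the test called a rise of 1.64-fold (log2 0.71 ± 0.21, adjusted p = 0.0158).

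Replicate 1 was the highest Hadhb library of both groups. Hadhb lost its call without FCM replicate 2 or 3 (adjusted p = 0.0546 to 0.0594, log2 change 0.61 to 0.62). Hadhb reads per Hadha read were 0.601, 0.533 and 0.405 in the TCM libraries and 0.406, 0.246 and 0.264 in the FCM libraries (two-sided exact permutation p = 0.2). Within each replicate number both Hadhb in CPM and this ratio were higher in TCM, and with the replicate block the adjusted p of Hadhb was 1.85e-09 (edgeR). The labels do not pair the libraries, and in the data pairing by number was clear for replicate 1 alone. Among the soluble enzymes, Hadh, the medium- and short-chain hydroxyacyl-CoA dehydrogenase, was higher by 1.57-fold (log2 0.65 ± 0.14, adjusted p = 0.00356). Acaa2, a mitochondrial thiolase, was higher by 1.63-fold (log2 0.70 ± 0.15, adjusted p = 0.00404). Acat1, the acetoacetyl-CoA thiolase, had 18.8, 18.4 and 17.3 CPM in the TCM libraries and 12.7, 10.8 and 12.8 CPM in the FCM libraries, a rise without overlap (log2 0.59 ± 0.12, adjusted p = 0.00275). Echs1, the short-chain hydratase, was lower by 1.35-fold, at 9.79 ± 1.40 CPM in TCM and 13.3 ± 1.59 CPM in FCM (SD, n = 3 each; log2 -0.44 ± 0.15, adjusted p = 0.0308). Echs1 lost its call without TCM replicate 2 or 3 or FCM replicate 1 (adjusted p = 0.0881 to 0.115, log2 change -0.40 to -0.34) and shares 142 exon bases with Paox.

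Auxiliary enzymes, which let unsaturated fatty acids pass through the cycle, were all higher in TCM, as were 28.8% of all tested genes. Decr1, the mitochondrial dienoyl-CoA reductase, had 20.2, 21.3 and 18.6 CPM in TCM replicates 1 to 3, against 8.44, 5.84 and 6.24 CPM in FCM replicates 1 to 3. The lowest TCM library held more than any FCM library by a wide margin, and the rise of 2.94-fold (log2 1.55 ± 0.16, adjusted p = 5.60e-05) was the largest among the enzyme genes of the set. Eci2, an enoyl-CoA isomerase of peroxisomes and mitochondria, had 7.72, 8.38 and 9.55 CPM in the TCM libraries and 3.63, 4.08 and 4.65 CPM in the FCM libraries. Its mitochondrial relative Eci1 had 27.7, 25.7 and 24.1 CPM in the TCM libraries and 14.2, 14.7 and 16.4 CPM in the FCM libraries. The rises were 2.07-fold and 1.71-fold without overlap (log2 1.05 ± 0.15 and 0.77 ± 0.12, adjusted p = 0.000441 and 0.000541). Decr2, the peroxisomal reductase, rose least, at 9.04 ± 0.227 CPM in TCM and 6.67 ± 0.653 CPM in FCM (SD, n = 3 each; log2 0.44 ± 0.13, adjusted p = 0.0165), and lost its call without TCM replicate 2 or FCM replicate 3 (adjusted p = 0.0534 to 0.0574, log2 change 0.42). The ratio of Decr1 to Decr2 counts was 2.26, 2.29 and 2.09 in the TCM libraries and 1.39, 0.792 and 0.953 in the FCM libraries. The ratio was higher in all TCM libraries (two-sided exact permutation p = 0.1), and FCM replicate 1 was the highest of the FCM libraries. Of the 8 ratios 7 did not overlap between groups, and each of these 7 had an adjusted p of 0.114.

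**Figure D4:**
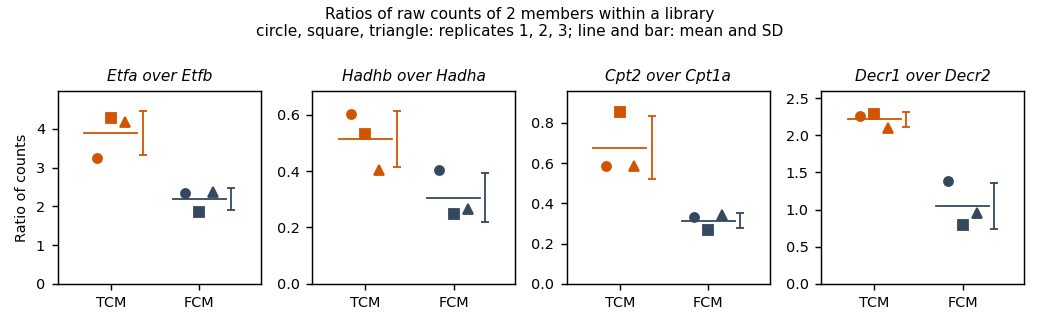
Ratio of raw counts of 2 members within each library, with mean and SD of 3 libraries per group. Etfa over Etfb, Cpt2 over Cpt1a and Decr1 over Decr2 are higher in every TCM library, and Hadhb over Hadha meets at about 0.405 and 0.406 in TCM replicate 3 and FCM replicate 1.

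Peroxisomal chain shortening handles very long and branched fatty acids. Acaa1a, the peroxisomal thiolase, was lower in TCM by 1.40-fold, at 20.2 ± 1.82 CPM in TCM and 28.3 ± 2.32 CPM in FCM (SD, n = 3 each; log2 -0.48 ± 0.12, adjusted p = 0.00789). Reads of Acaa1a may be shared with its near-identical copy Acaa1b, which had 2 counts over the TCM libraries and 1 over the FCM libraries, and with Myd88, which overlaps it by 290 exon bases. Acox3, an oxidase of branched chains, was lower by 1.24-fold (log2 -0.31 ± 0.11, adjusted p = 0.0372). This was the highest adjusted p among the called members. The call was lost under 9 of 14 alternative settings, 4 of which left out TCM replicate 2 or 3 or FCM replicate 2 or 3 (adjusted p = 0.108 to 0.137, log2 change -0.30 to -0.27). Acox3 shares 700 exon bases with 4931431C16Rik. Hsd17b4, the hydratase and dehydrogenase of the same pathway, was higher by 1.34-fold (log2 0.42 ± 0.12, adjusted p = 0.0157). The 3 genes summed to 56.5 to 63.9 CPM in TCM and 64.4 to 71.6 CPM in FCM, so that TCM was the lower group here.

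Among the receptors, Ppard was the only member of the PPAR family with a substantial level. Ppard (chromosome 17, 28232700 to 28301474), the receptor found in most tissues, had 88.1, 84.2 and 83.0 CPM in TCM replicates 1 to 3, against 41.3, 42.8 and 46.3 CPM in FCM replicates 1 to 3. Each TCM library held close to the same high level and no FCM library approached it. The rise was 1.96-fold (log2 0.97 ± 0.11, adjusted p = 0.000128). Pparg, the receptor of adipocytes and tissue macrophages, had 8, 1 and 7 counts in the TCM libraries and 11, 8 and 8 in the FCM libraries. These counts overlapped between groups, and the FCM-over-TCM rate ratio was 1.17 (95% exact counting interval 0.610 to 2.33, counting error only). Ppara, the receptor best known from liver, had 0, 0 and 1 counts in the TCM libraries and 1, 0 and 3 in the FCM libraries. It was at or below the limit of 3 counts in every library, a limit worth 0.160 to 0.196 CPM in TCM and 0.112 to 0.136 CPM in FCM. Ppara had 1 count over the TCM libraries and 4 over the FCM libraries, an FCM-over-TCM ratio of 2.78 (95% exact counting interval 0.275 to 137).

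Of the 5 tested genes grouped here as known PPAR targets, 3 were higher, 1 was lower and Ucp2 was not called. This grouping is not a full list of PPAR targets. Among all tested genes 28.8% were called higher and 30.0% lower, and 5 genes are too few to be set against these shares. Angptl4, a secreted inhibitor of lipoprotein lipase and a target of all 3 receptors, had 0.851, 0.786 and 0.899 CPM in TCM replicates 1 to 3, against 1.32, 1.68 and 2.21 CPM in FCM replicates 1 to 3. These values rest on few reads, 16, 12 and 16 counts in the TCM libraries and 29, 45 and 57 in the FCM libraries. Every TCM library was below every FCM library, and the fall was 2.05-fold (log2 -1.04 ± 0.27, adjusted p = 0.00932). Pdk4, the kinase that shuts pyruvate out of the citric acid cycle and a classic PPARD target in muscle, had 0, 1 and 2 counts in the TCM libraries and 3, 1 and 5 in the FCM libraries. At this depth its FCM-over-TCM ratio was 2.09 (95% exact counting interval 0.521 to 11.98, counting error only), which does not show a difference.

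Cd36, a scavenger receptor that takes up fatty acids and is abundant on macrophages and platelets, had 32.6, 34.2 and 28.1 CPM in TCM replicates 1 to 3, against 24.2, 10.4 and 15.1 CPM in FCM replicates 1 to 3. The TCM libraries all exceeded the FCM libraries, though FCM replicate 1 came close, and the rise was 1.92-fold (log2 0.94 ± 0.26, adjusted p = 0.0131). In the same TCM libraries 9 of 12 tested macrophage and monocyte markers were lower, while Marco was higher and Cd68 and Spic were not called (summed level 187 to 241 CPM in TCM and 859 to 1096 CPM in FCM). Of the platelet markers Ppbp and Itga2b were lower, Pf4 was not called and Gp9 was not tested. The part of these cells in the values of Cd36, Fabp4 and Pparg was not tested. Fabp5, the fatty acid carrier of many lymphoid and epithelial cells, had 69.2, 96.7 and 120.2 CPM in TCM replicates 1 to 3, against 44.1, 48.8 and 56.0 CPM in FCM replicates 1 to 3. It rose 1.92-fold without overlap but with wide spread among the TCM libraries (log2 0.94 ± 0.20, adjusted p = 0.00344), and its processed copies in the genome may share its reads. Fabp4, the carrier of adipocytes and macrophages, stayed rare, with 14, 14 and 25 counts in the TCM libraries and 7, 8 and 9 in the FCM libraries. In CPM it was still higher in each TCM library, by 3.14-fold (log2 1.65 ± 0.35, adjusted p = 0.00334). Ucp2, a mitochondrial carrier protein, had 504, 671 and 741 CPM in the TCM libraries and 455, 709.7 and 654 CPM in the FCM libraries. Replicate 1 was the lowest in both groups and the ranges overlapped, with a log2 change of 0.07 (95% interval -0.42 to 0.57). Ucp2 shares 305 exon bases with Dnajb13.

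**Figure D5:**
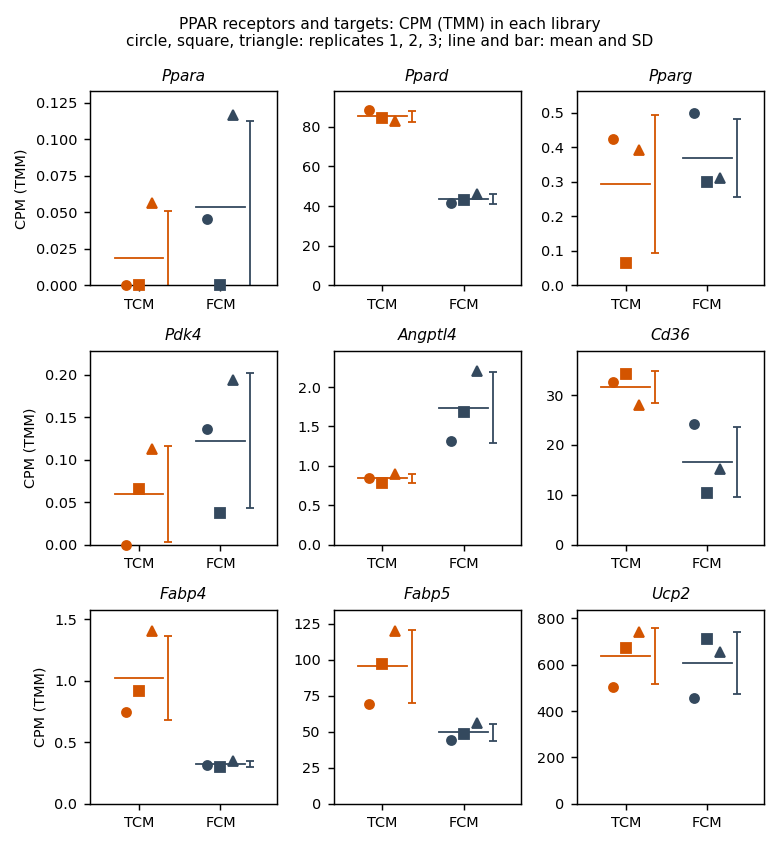
CPM (TMM scaled) of the 3 PPAR receptor genes and 6 PPAR target genes in each library, with mean and SD of 3 libraries per group and a linear axis of its own for each gene. Ppard lies near 85 CPM in TCM and 43 CPM in FCM, while Ppara, Pparg and Pdk4 stay below 0.5 CPM in every library.

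Per length (CPM per kilobase of the GENCODE M21 transcript with the longest coding sequence) the highest members had the same order in both groups, while ranks further down shifted. Ucp2 was first in both (160.1 in TCM and 152 in FCM CPM per kilobase), followed by Fabp5 (96.6 in TCM and 50.2 in FCM), Etfa (91.2 in TCM and 38.9 in FCM), Etfb (36.6 in TCM and 27.6 in FCM) and Acadl (33.2 in TCM and 18.9 in FCM). In TCM the level of Fabp5 (96.6 ± 25.8) and that of Etfa (91.2 ± 12.1) differed by less than their SD. The trifunctional subunits stood at nearly the same level per length in TCM, with Hadhb at 10.2 ± 2.17 and Hadha at 10.1 ± 0.289, whereas in FCM Hadhb was at 6.22 ± 1.54 and Hadha at 10.5 ± 0.536 (SD, n = 3 each). Cpt1a was the 31st of 38 in TCM and the 25th in FCM, and Decr1 the 15th in TCM and the 29th in FCM.

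Transcript length moved with the direction of change. Across all tested genes with a length, split by length into 5 groups of nearly equal size, the median log2 change was 0.47 in group 1 (the shortest transcripts) and -0.35 in group 5 (the longest). Groups 2, 3 and 4 had medians of 0.11, -0.05 and -0.20. Among the members, too, the share called higher was smaller in the groups of longer transcripts. Of 8 members in group 1, 7 were higher and 1 lower, and of 11 in group 2, 9 were higher and 1 lower. Of 6 in group 3, 4 were higher and 2 lower, and of 10 in group 4, 3 were higher and 3 lower. Group 5 held 0 members. The shares of all tested genes called in each length group were not counted. Whether the members differed from other genes of their length was therefore not tested. With this trend removed 20 members were higher and 5 lower, where 57.9% of all tested genes passed. The median of the tested members was then 0.44. Eci1, Decr2, Crat and Acox3 then lost their calls, and Etfb was no longer higher.

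Other genes of the pathway were listed from general knowledge. In a wider fatty acid oxidation list of 47 genes, 38 were tested, with 16 higher, 6 lower and 16 not called (median log2 change 0.34). That is 57.9% called, near the 58.8% of all tested genes, with 42.1% higher and 15.8% lower. The 4 higher genes with the smallest p included Cpt1c, a CPT1 form best known from brain, which had 84, 94 and 116 counts in the TCM libraries and 9, 6 and 8 in the FCM libraries. Gcdh, glutaryl-CoA dehydrogenase of lysine breakdown, Acad8, isobutyryl-CoA dehydrogenase of valine breakdown, and Scp2, a peroxisomal thiolase and sterol carrier, rose 2.80-fold, 3.20-fold and 2.57-fold. Among the lower genes, Acsl1, which activates long-chain fatty acids, was lower by 3.47-fold, at 14.4 ± 1.97 CPM in TCM and 50.1 ± 1.99 CPM in FCM (SD, n = 3 each; adjusted p = 7.87e-06). Acsl3, Acsl4, Acsl5 and Acsl6 of the same family were not called. Acsl4 and Acsl5 stood above Acsl1 in both groups, at 75.3 and 60.0 CPM in TCM and 92.9 and 76.9 CPM in FCM. Acaca, which makes malonyl-CoA, the inhibitor of CPT1, was lower by 1.58-fold. Abcd2 had 2 counts over the TCM libraries and 61 over the FCM libraries, an FCM-over-TCM ratio of 21.2 (95% exact counting interval 5.63 to 179, counting error only). The edgeR test, which takes in the spread between replicates, gave a fall of 18.6-fold (log2 -4.22 ± 0.61, adjusted p = 0.000442).

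In a wider PPAR list of 25 genes, 21 were tested, with 5 higher, 10 lower and 6 not called (median -0.42). Here 71.4% were called, 23.8% as higher and 47.6% as lower. Hilpda, an inhibitor of triglyceride breakdown that is also induced by hypoxia, had 150.2, 269 and 296 CPM in the TCM libraries and 30.3, 42.2 and 40.1 CPM in the FCM libraries, a 6.35-fold rise. Prkaa2, a catalytic subunit of AMP-activated kinase, Pdk1 and Pdk3, both pyruvate dehydrogenase kinases, rose 11.4-fold, 1.99-fold and 1.98-fold. Prkaa2 rests on few reads, 80, 61 and 55 counts in the TCM libraries and 15, 4 and 5 in the FCM libraries. The other catalytic subunit gene, Prkaa1, was not called, at 50.3 CPM in TCM and 49.0 CPM in FCM (log2 0.04). Lpl, lipoprotein lipase, which is abundant in macrophages and adipocytes, had 4, 8 and 6 counts in the TCM libraries and 271, 371 and 319 in the FCM libraries. Klf4, a transcription factor of monocytes, Nr1h3, the oxysterol receptor LXR alpha, and Lipe, hormone-sensitive lipase, were lower by 3.45-fold, 4.20-fold and 2.06-fold. In the same libraries 9 of 12 tested macrophage and monocyte markers and 12 of 13 neutrophil markers were lower, with Marco higher, and the part of these cells in the changes was not tested.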

How the data were processed

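The deposited count table gives raw exon reads for each gene symbol, as whole numbers. The deposited normalized table holds a signal, the authors' counts divided by 1 size factor per library. The build was mm10, and STAR 2.7.2d and DESeq2 1.28.1 are named, per the submitters' processing notes, with roles, counting tool, annotation and strand setting not given in the sources used here. Columns were assigned by title. Reads recovered from the normalized table (100% whole at a tolerance of 0.1 reads) were used only to try its header, which called 7 members higher and 23 lower.

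After 92 spike-in rows at 0 were left out, 12423 of 23453 genes passed filterByExpr and were tested with edgeR 4.0.16 in R 4.3.3 (TMM, quasi-likelihood, group as sole term, Benjamini-Hochberg). SE is the size of a log2 change over the square root of F. The code was tested on simulated data. Alternatives were DESeq2 1.42.0, other scalings, no filter, libraries left out, a replicate block and removal of a loess trend on transcript length.

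Same-numbered libraries of the 2 groups deviated together (correlation over 12423 genes 0.60, 0.15 and 0.36 for numbers 1 to 3, all above 0.1). The labels do not say that the numbers pair samples. A replicate block was therefore tried only as an alternative, and the main fit and the permutation p-values took no pairing. Numbers 2 and 3 correlated more when crossed (0.42 for TCM replicate 3 with FCM replicate 2, and 0.27 for TCM replicate 2 with FCM replicate 3), so that pairing is clear for number 1 alone. Replicates 1 stood apart: pairs that held one gave a chi-square per gene of 58.7 to 104, against 7.12 for TCM and 4.87 for FCM replicates 2 and 3, so no library was a duplicate. Gene models are from GENCODE M21 (GRCm38), and promoter sequences from RefSeq (GRCm38.p6), which matched 29 of 38 members. Of the 38, 7 share exon bases with another counted gene. Every member is named, with values per library for the called members with the 12 smallest p and for the shuttle, receptor and target genes fixed by name; of each wider list the 4 smallest p in each direction are named, except 1 gene that is not reported here. The members, lists and alternatives were chosen with earlier results of these data known.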

Additional observations from a re-analysis of the deposited data

How the results depend on the processing

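Of the 30 called members, 13 (10 higher and 3 lower) kept direction and call under all 14 alternatives tried on single genes, and 21 did when library totals alone are set aside. When libraries were scaled by their totals alone, the median of all tested genes moved by -0.21 on the log2 scale, 11 members were higher (61.1% of calls, against 76.7%) and 7 lower, the members' median was 0.37, 13 wider-list genes were higher, and 2364 of all genes were higher (37.4% of calls). No called member turned its sign with that scaling. With the length trend removed the members' median was 0.44 (0.4395 alone and 0.4394 with the replicate block). The normalized table's header gave 7 members higher, 23 lower and a median of -0.58. Leaving out 1 library at a time gave 19 to 23 members higher and 3 to 7 lower, with 3 lower without TCM replicate 2 and without TCM replicate 3. In these fits 45% to 65.1% of all tested genes passed. Without replicate 1 of both groups 23 members were higher and 7 lower. The replicate block gave the same 23 and 7 and changed no member's call. More of all tested genes passed in both of these settings, 74.2% and 73.3% against 58.8% in the main fit. Equal counts of members thus stood less far above the background. With the block the wider lists had 25 higher and 20 lower, against 21 and 16 without it.

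Turned signs were few: 18 of 490 values, 16 of them in members that were not called. Leaving out 1 library at a time, Acadm ran from -0.102 to 0.0514, Acad9 from -0.104 to 0.0466, Acad10 from -0.170 to 0.0259 and Ucp2 from -0.0997 to 0.222 on the log2 scale. The turned values among these were 0.0514 and 0.00335 (Acadm, without TCM or FCM replicate 2), 0.0102 and 0.0466 (Acad9, without TCM replicate 2 or FCM replicate 1), 0.0259 and 0.0235 (Acad10, without TCM replicate 3 or FCM replicate 2) and -0.0380 and -0.0997 (Ucp2, without TCM replicate 3 or FCM replicate 1). With the length trend removed, alone and with the block, Acad9 was at 0.0663 and 0.0632, Acad10 at 0.0320 and 0.0483 and Hadha at 0.0550 and 0.0585. Acad9 was at 0.0613 without replicate 1 of both groups, and Ucp2 at -0.150 with library totals. Etfb, which had been called, was at -0.11 with the trend removed and -0.12 with the block as well. Beyond the settings' own construction the cause was not tested. Depth limits Pdk4, Ppara, Pparg and Fabp4, which held at most 25 counts in any library. Angptl4 was low as well, with 12 to 16 counts in the TCM libraries and 29 to 57 in the FCM libraries.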
